A study of Mus musculus with 6 samples.

Results

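Collagens form the collagen gene family, and the genes described here were taken by name and by level. Of 53947 genes measured, 44 were protein-coding genes with a numbered collagen chain symbol (Col, a number, a and a number), and 34 of these had a mean expected count of at least 10 over the 6 libraries. They comprised 10 fibrillar chains, 6 chains of the type IV network, 5 beaded filament chains (type VI), 6 fibril-associated chains (FACIT), 2 multiplexins, 2 short-chain network chains, 2 transmembrane chains and 1 anchoring fibril chain. The members nearest above the minimum were Col13a1 (mean 13.3 counts) and Col4a6 (15.3), and those nearest below it were Col9a1 (8.67) and Col2a1 (8.0). The remaining 8 below it were Col28a1 (6.17), Col26a1 (5.48), Col17a1 (4.5), Col25a1 (3.0), Col10a1 (2.83), Col9a2 (1.17), Col9a3 (0.83) and Col6a4, which was at 0 in every library. All 34 members passed the filter on low counts and were tested.

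Total RNA of the quadriceps, a thigh muscle, was sequenced after removal of ribosomal RNA in 3 WT and 3 HSALR samples from mice aged 12 weeks. In HSALR mice a transgene of human skeletal actin holds 220 CTG repeats, is driven in skeletal muscle fibres by the actin promoter, and models the loss of free MBNL splicing proteins in myotonic dystrophy. WT samples were labelled by genotype only, and neither group's labels gave a strain, litter or animal.

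Collagens are triple-helical proteins of the extracellular matrix. In muscle, fibroblasts of the endomysium, perimysium and epimysium lay down fibrils of types I, III and V, which carry force between fibres and to the tendon. Each fibre and capillary is wrapped in a basement membrane built on a type IV network, type VI filaments link that membrane to the fibrils, and FACIT collagens coat the fibrils' surface. Chains are hydroxylated and folded in the endoplasmic reticulum, trimmed outside the cell, crosslinked, and then bound by integrin and discoidin domain receptors.

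Libraries held 11468959 to 15023710 counts, and 1 stood apart. The non-coding 7SL and 7SK RNAs took 43.9% of the counts in HSALR replicate 1, against 18.8% and 23.98% in HSALR replicates 2 and 3 and 14.1% to 15.5% in WT. Results for the family, for the called members and for many other members are therefore given with and without HSALR replicate 1. The 5 myofibre markers (Ckm, Myh4, Myh1, Tnnt3 and Mylpf) summed to 84630 ± 5399 CPM in WT and 57340 ± 15900 CPM in HSALR (SD, n = 3 each). Of these 5 markers 0 were called, where 4.28% of all tested genes were called higher and 7.48% lower.

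Together the 34 collagen genes were more abundant in HSALR muscle, by an amount that differed widely between its libraries. Their summed level was 2124, 2165 and 1853 CPM (counts scaled to a common, TMM-normalised library size) in WT replicates 1, 2 and 3 and 7283, 2489 and 3544 CPM in HSALR replicates 1, 2 and 3. The means were 2047 ± 169.8 and 4439 ± 2519 CPM (SD, n = 3). Every HSALR library was above every WT library, but HSALR replicate 1 lay at 3.56 times the WT mean, replicate 3 at 1.73 times and replicate 2 at 1.22 times. As a share of the counts of protein-coding genes, collagens took 0.244% ± 0.0231 in WT and 0.731% ± 0.498 in HSALR. In such bulk samples, more cells of a type and more RNA per cell cannot be told apart.

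By edgeR's quasi-likelihood test with Benjamini-Hochberg adjustment over 13576 genes, 4 of the 34 members were called higher in HSALR (adjusted p below 0.05), where 4.28% of all tested genes were. These were Col3a1, Col5a3, Col14a1 and Col18a1. None was called lower (0 of 34, where 7.48% of all genes were), also by DESeq2, and 16 members had an unadjusted p below 0.05, of which 15 were higher and Col22a1 was lower. The log2 fold change (HSALR over WT) was above 0 for 31 of 34 members, with a median of 0.83 against 0.04 over all tested genes, of which 52.9% were above 0. For 13 members all 3 HSALR values lay above all 3 WT values, which held for 17.8% of all tested genes, and for 0 members they lay below.

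These counts moved with single libraries. Without HSALR replicate 1, 12 members were called higher (5.94% of all genes tested), among them all 4 named above, while the members' median log2 fold change was 0.41. Without HSALR replicate 2 the count was 14, where calls also rose over all genes (10.6% of those tested were called higher). Without WT replicate 1, 2 or 3 or HSALR replicate 3 it was 0, where the calls over all genes also fell, to between 42 and 50 higher. DESeq2 called 13 members higher, where it called 7.48% of all genes higher. With limma-voom the calls of Col3a1 and Col14a1 were lost (adjusted p = 0.0518 and 0.0512), with no filter on low counts likewise (0.0709 and 0.158), with Col4a1 and Col4a2 called in their place, and on log2(TPM + 0.1) those of all 4 (adjusted p between 0.0776 and 0.735). On the deposited TPM values calls over all genes also fell, to 50 higher against 581 in the main fit. The median of all genes shifted to -0.46 there, 20 of 34 members were above 0, and the members' median of 0.15 lay 0.61 above that of all genes.

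**Figure D1:**
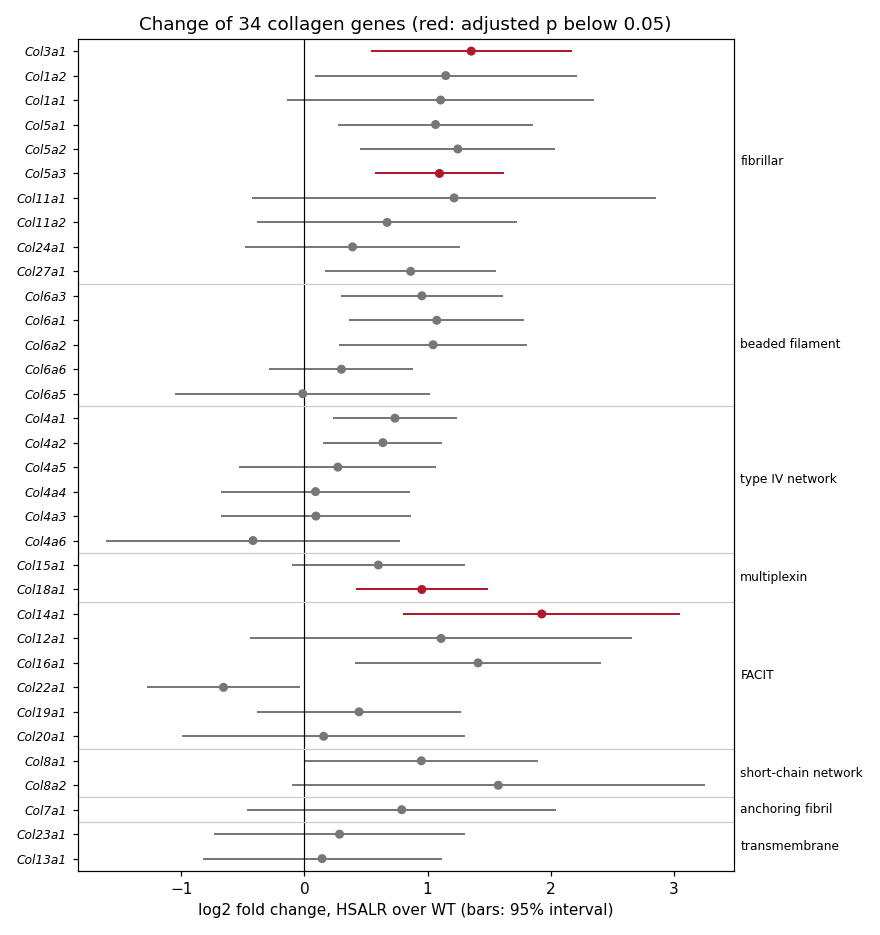
Log2 fold change of each of the 34 collagen genes (x axis, HSALR over WT), grouped by class, with 95% intervals from edgeR's quasi-likelihood fit on 3 WT and 3 HSALR libraries. Red marks the 4 called genes, Col3a1, Col5a3, Col18a1 and Col14a1, and the points of Col6a5, Col4a6 and Col22a1 lie below 0.

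Bases are shown for the starts of Col3a1, Col14a1 and Col5a3, the 3 called genes whose window of 250 bases before the transcript start overlapped no annotated exon, because these genes moved in the same direction. The windows were read from GRCm39 at the start of each gene's canonical GENCODE transcript, at chr1:45350448-45350697 (plus strand), chr15:55170890-55171139 (plus strand) and chr9:20726419-20726668 (minus strand). Each is printed 5′ to 3′ on the gene's strand, and capitals mark matches to the CCAAT box (searched as its letters CCAAT), the TATA box (TATAAA) and the GC box (GGGCGG), which were each searched on both strands.
Col3a1: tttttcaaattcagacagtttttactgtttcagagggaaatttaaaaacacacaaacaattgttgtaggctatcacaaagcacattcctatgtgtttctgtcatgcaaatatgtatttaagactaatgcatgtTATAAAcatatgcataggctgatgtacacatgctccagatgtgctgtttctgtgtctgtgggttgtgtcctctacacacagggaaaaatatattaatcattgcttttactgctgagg
Col14a1: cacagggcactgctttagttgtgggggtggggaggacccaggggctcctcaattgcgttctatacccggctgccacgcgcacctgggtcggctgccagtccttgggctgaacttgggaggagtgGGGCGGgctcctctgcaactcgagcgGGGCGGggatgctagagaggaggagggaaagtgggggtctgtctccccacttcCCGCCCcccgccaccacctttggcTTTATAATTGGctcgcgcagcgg
Col5a3: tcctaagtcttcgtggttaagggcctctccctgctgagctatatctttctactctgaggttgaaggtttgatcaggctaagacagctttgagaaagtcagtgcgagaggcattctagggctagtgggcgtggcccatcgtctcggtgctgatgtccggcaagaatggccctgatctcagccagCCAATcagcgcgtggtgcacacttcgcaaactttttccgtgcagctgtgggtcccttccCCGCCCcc

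The Col3a1 window was AT-rich (35.2% G and C) and held 1 TATAAA match and no other. That of Col14a1 (65.2% G and C) held 3 GGGCGG matches and, adjoining each other on the reverse strand, 1 TATAAA and 1 CCAAT match. The Col5a3 window (55.6% G and C) held 1 CCAAT match and 1 GGGCGG match. No one of these letters was thus in all 3 windows. CCAAT was in 11 of the 34 members' windows (32.4%) and in 36.5% of the windows of 21770 protein-coding genes, TATAAA in 5 (14.7%, against 11.9%), and GGGCGG in 17 (50.0%, against 36.3%). Of the 13 members whose groups did not overlap, 5 held CCAAT, 2 TATAAA and 5 GGGCGG. A match in this window describes the letters only.

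Among the fibrillar collagens, all 10 members had a log2 fold change above 0 (median 1.10), 2 were called and 5 had groups that did not overlap. Over all tested genes 52.9% were above 0, 4.28% were called higher and 17.8% had every HSALR library above every WT library. HSALR replicate 1 was the highest of all 6 libraries for 9 of the 10. Their summed level was 1479, 1448 and 1198 CPM in WT and 5415, 1672 and 2494 CPM in HSALR replicates 1, 2 and 3. They took 67.1% ± 2.52 of the members' CPM in WT and 70.6% ± 3.59 in HSALR (SD, n = 3), a share whose groups overlapped.

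Col3a1 (ENSMUSG00000026043.19, chr1:45350698-45395840) encodes the chain of type III collagen, the thin fibrils of the endomysium. Its level was 567, 514 and 463 CPM in WT and 2142, 784 and 1024 CPM in HSALR replicates 1, 2 and 3. The lowest HSALR library was above the highest WT library. Its log2 fold change was 1.35 ± 0.35 (SE, adjusted p = 0.0456), and without HSALR replicate 1 it was 0.82 (adjusted p = 0.00662). Expected counts of Col3a1 were whole, within 0.005 here and for the members below, in 2 of 6 libraries, so part of its reads were divided with another gene, and the annotation places the predicted gene Gm54819 on the same strand within it.

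Type I collagen, the main protein of thick fibrils, is made of the chains of Col1a1 (chr11:94827050-94843868) and Col1a2 (chr6:4504814-4541555), and neither was called. Col1a1 was at 331, 323 and 244 CPM in WT and at 1180, 259 and 493 CPM in HSALR. Col1a2 was at 416, 425 and 332 CPM in WT and at 1521, 401 and 675 CPM in HSALR. For both chains HSALR replicate 2 lay among the WT libraries and replicate 1 far above them. The log2 fold change was 1.11 ± 0.52 for Col1a1 (adjusted p = 0.196) and 1.15 ± 0.45 for Col1a2 (adjusted p = 0.131), and without HSALR replicate 1 these were 0.34 and 0.47 (adjusted p = 0.498 and 0.194). Without HSALR replicate 2 both were called, at 1.48 each (adjusted p = 0.0362 and 0.0253).

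Type V collagen joins type I in fibrils and limits their diameter. Col5a3 (ENSMUSG00000004098.8, chr9:20681337-20726418), its least abundant chain, had the lowest adjusted p of the family. It was at 19.7, 17.7 and 19.9 CPM in WT and at 54.7, 27.5 and 40.2 CPM in HSALR, with no overlap. This was a log2 fold change of 1.10 ± 0.23 (SE, adjusted p = 0.0211), and 0.84 without HSALR replicate 1 (adjusted p = 0.00928). Its partners Col5a1 and Col5a2 did not overlap either, yet missed the threshold. Col5a1 was at 72.9, 77.5 and 67.4 CPM in WT and at 242, 88.4 and 125.5 CPM in HSALR (log2 fold change 1.06 ± 0.34, adjusted p = 0.0773). Col5a2 was at 54.1, 69.4 and 57.1 CPM in WT and at 227, 88.6 and 112.5 CPM in HSALR (1.25 ± 0.34, adjusted p = 0.053). Without HSALR replicate 1 both were called, at 0.57 and 0.75 (adjusted p = 0.0336 and 0.00984). Col5a2 lies beside Col3a1 on chromosome 1, on the opposite strand and 16713 bases away.

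The minor fibrillar chains were at low levels and none was called. Col11a1 and Col11a2, the type XI chains of cartilage, were high in HSALR replicate 1 alone, at 23.6 and 15.9 CPM, while the other 5 libraries lay between 3.57 and 7.42 and between 4.39 and 6.44 CPM. Their log2 fold changes were 1.22 and 0.67 with that library and 0.21 and -0.063 without it. Col27a1 did not overlap, at 1.64 to 2.45 CPM in WT and 3.15 to 4.66 CPM in HSALR (log2 fold change 0.86 ± 0.30, adjusted p = 0.0901). Col24a1 ran the other way in HSALR replicate 1. It was at 3.42 CPM there, below the 4.98 to 6.36 CPM of WT, and at 11.5 and 8.06 CPM in HSALR replicates 2 and 3 (log2 fold change 0.39 ± 0.38, adjusted p = 0.502). With HSALR replicate 1 left out Col24a1 was called, at 0.74 (adjusted p = 0.0458).

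**Figure D2:**
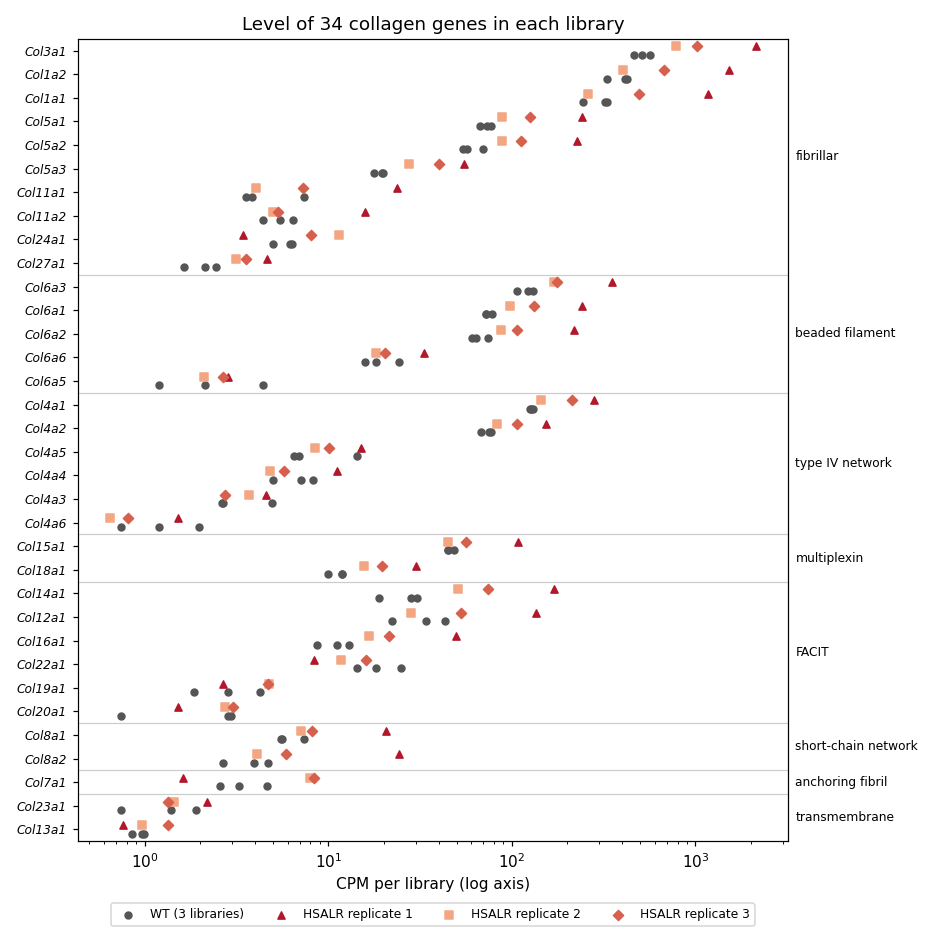
Level of the 34 collagen genes in each library (CPM, log axis), by class. Grey points are the 3 WT libraries and coloured symbols the 3 HSALR libraries, of which replicate 1 (triangle) was the highest of all 6 for 25 members and the lowest for 4.

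Col6a1, Col6a2 and Col6a3 encode the chains of type VI collagen, whose beaded filaments anchor the fibre's basement membrane, and mutations in them cause muscular dystrophies. None of the 5 beaded filament members was called, where 4.28% of all tested genes were called higher. The 3 main chains each had every HSALR library above every WT library, as did 17.8% of all tested genes. Col6a1 (chr10:76543440-76562283) was at 72.4, 78.4 and 72.6 CPM in WT and at 241.6, 97.5 and 131.9 CPM in HSALR, a log2 fold change of 1.07 ± 0.30 (adjusted p = 0.058). Col6a2 (chr10:76429660-76459549) was at 64.0, 74.0 and 60.9 CPM against 217.1, 86.8 and 106.8 CPM, a change of 1.04 ± 0.33 (adjusted p = 0.0742). Col6a3 (chr1:90693645-90771780) was at 106.2, 131.3 and 122.5 CPM against 352.4, 169.7 and 175.4 CPM, a change of 0.95 ± 0.28 (adjusted p = 0.0637). All 3 chains thus had HSALR replicate 1 at the top and replicate 2 nearest to WT. With HSALR replicate 1 left out all 3 were called, at 0.63, 0.56 and 0.53 (adjusted p = 0.0161, 0.0237 and 0.0188). The alternative chains Col6a6 (15.8 to 24.3 CPM in WT, 18.3 to 33.2 CPM in HSALR) and Col6a5 (1.19 to 4.38 and 2.10 to 2.85 CPM) overlapped. Their log2 fold changes were 0.30 and -0.014, and without HSALR replicate 1 they were 0.0064 and -0.088. Both had whole expected counts in 1 of 6 libraries only. In the others their fractions complemented each other, as in WT replicate 1 (343.73 for Col6a6 and 62.27 for Col6a5). Reads were thus divided between this pair, and their values are less certain.

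In the type IV network of the basement membrane, 0 of 6 members were called and the median log2 fold change was 0.18. Over all tested genes 4.28% were called higher and the median was 0.04. Col4a1 (chr8:11248423-11362826), which with Col4a2 forms the common network of fibres and vessels, was at 126.3, 129.8 and 126.9 CPM in WT and at 279.1, 144.7 and 213.9 CPM in HSALR. WT values lay close together and every HSALR value was above them, most narrowly in replicate 2. Its log2 fold change was 0.74 ± 0.22 (adjusted p = 0.0582), and 0.50 without HSALR replicate 1 (adjusted p = 0.0575). Col4a2 (chr8:11362471-11499287) was at 68.4, 76.6 and 75.0 CPM against 153.2, 82.9 and 106.2 CPM, a change of 0.64 ± 0.21 (adjusted p = 0.0758), and 0.38 without HSALR replicate 1 (adjusted p = 0.0897). These genes lie head to head on opposite strands of chromosome 8, their starts 317 bases apart and their annotated ends overlapping by 356 bases. The sources used here do not say whether the counting used strand. Expected counts of both genes were whole in 6 of 6 libraries, so no sign was seen of reads divided between them. Which strand the reads in that overlap came from was not tested.

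The other type IV chains were at low levels and their groups overlapped. Col4a3, Col4a4 and Col4a5, the chains of kidney and other specialised basement membranes, were at 2.65 to 4.95, 4.98 to 8.28 and 6.47 to 14.3 CPM in WT and at 2.75 to 4.57, 4.84 to 11.2 and 8.47 to 15.03 CPM in HSALR. Their log2 fold changes were 0.09, 0.09 and 0.27 (adjusted p between 0.618 and 0.874), and without HSALR replicate 1 they were -0.08, -0.34 and 0.017. Col4a6, which pairs with Col4a5 in some membranes, was at 0.74 to 1.98 CPM in WT and 0.65 to 1.52 CPM in HSALR, with a log2 fold change of -0.42 (adjusted p = 0.612).

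Of the multiplexins, which sit where basement membranes meet the fibrils, Col18a1 was called and Col15a1 was not. Col18a1 (ENSMUSG00000001435.16, chr10:76888012-77002390), whose C-terminal fragment is endostatin, was at 11.9, 9.94 and 11.9 CPM in WT and at 30.3, 15.7 and 19.5 CPM in HSALR. The groups did not overlap, the log2 fold change was 0.95 ± 0.23 (adjusted p = 0.0352), and it was 0.66 without HSALR replicate 1 (adjusted p = 0.0243). With each gene's effective length in each library as an offset the change was 0.84 and the call was lost (adjusted p = 0.0764). Col15a1 (chr4:47207582-47313179), a chain of muscle and capillary basement membranes, was at 44.8, 44.9 and 48.5 CPM in WT and at 108.3, 45.0 and 56.5 CPM in HSALR. HSALR replicate 2 lay within the WT range. Its log2 fold change was 0.60 ± 0.30 (adjusted p = 0.208), and 0.15 without HSALR replicate 1 (adjusted p = 0.483).

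FACIT collagens held both the largest and the most negative log2 fold change of the 34 members. Col14a1 (ENSMUSG00000022371.18, chr15:55171140-55384199), which coats fibrils in tendon and muscle connective tissue, was at 18.9, 28.3 and 30.6 CPM in WT and at 170.8, 50.9 and 74.5 CPM in HSALR. Every HSALR library was above every WT library, replicate 1 by the widest log2 difference of any member. In the fit this gave a log2 fold change of 1.93 ± 0.47 (adjusted p = 0.0469), and 1.29 without HSALR replicate 1 (adjusted p = 0.0122). Col16a1 did not overlap either, at 8.70 to 13.1 CPM in WT and 16.6 to 49.7 CPM in HSALR (1.41 ± 0.42, adjusted p = 0.0714), and it was called without HSALR replicate 1 (0.81, adjusted p = 0.0202) and without HSALR replicate 2 (1.68, adjusted p = 0.0237). Col12a1, a partner of type I fibrils in tendon and fascia, overlapped, at 22.4, 43.5 and 34.1 CPM in WT and 135.3, 28.2 and 52.6 CPM in HSALR (1.11 ± 0.62, adjusted p = 0.276, and 0.29 without HSALR replicate 1).

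Col22a1, known from the junction of muscle and tendon, was lower in estimate but not called. It was at 18.1, 24.8 and 14.4 CPM in WT and at 8.37, 11.8 and 16.0 CPM in HSALR, where replicate 3 lay within the WT range (log2 fold change -0.66 ± 0.27, adjusted p = 0.134). Its expected counts were whole in 2 of 6 libraries. Col19a1, of basement membrane zones, and Col20a1 were at 1.86 to 4.24 and 0.74 to 2.97 CPM in WT and at 2.66 to 4.76 and 1.52 to 3.02 CPM in HSALR, with overlap for both.

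Few of the remaining classes' chains passed 10 CPM in any library. Col8a1 and Col8a2, chains of the short-chain network of vessel walls, were high in HSALR replicate 1, at 20.6 and 24.3 CPM, against 5.50 to 8.19 and 2.68 to 5.91 CPM in the other 5 libraries. Neither was called (log2 fold change 0.95 and 1.57, adjusted p = 0.152 and 0.176), and without HSALR replicate 1 their values were 0.32 and 0.42. Col7a1, the anchoring fibril chain best known from skin, had the reverse pattern, at 3.25, 2.58 and 4.61 CPM in WT and 1.62, 7.91 and 8.33 CPM in HSALR (0.79 ± 0.54, adjusted p = 0.344). Without HSALR replicate 1 it was called, at 1.23 (adjusted p = 0.0124). The transmembrane chains Col13a1, found at neuromuscular junctions, and Col23a1 stayed between 0.74 and 2.19 CPM in all 6 libraries, and their groups overlapped. Their log2 fold changes were 0.14 and 0.29, and without HSALR replicate 1 they were 0.32 and 0.055.

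**Figure D3:**
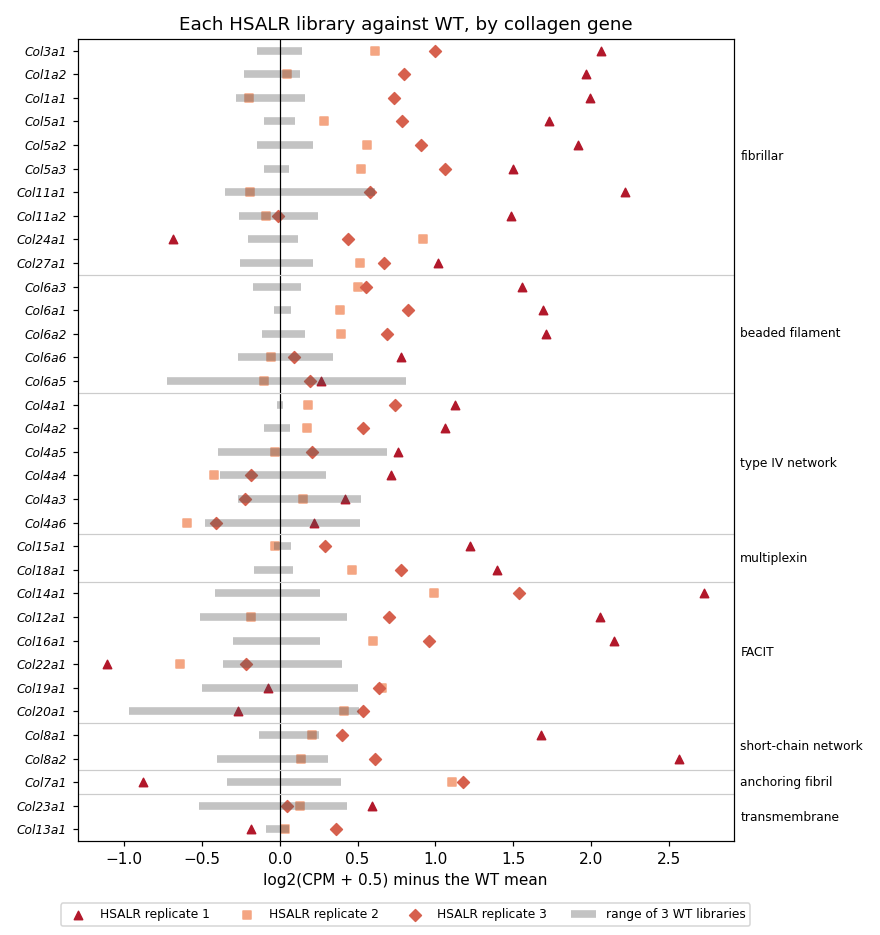
Difference of each HSALR library from the WT mean for each collagen gene, as log2(CPM + 0.5), with the range of the 3 WT libraries as a grey bar. HSALR replicate 1 (triangles) lay furthest to the right for most members but to the left of the WT range for Col24a1, Col22a1, Col7a1 and Col13a1.

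The HSALR libraries kept the same order in most classes. Against the WT mean of log2(CPM + 0.5), the median difference over the 34 members was 1.31 in HSALR replicate 1, 0.60 in replicate 3 and 0.18 in replicate 2. For fibrillar chains these medians were 1.82, 0.76 and 0.40, and for type IV chains 0.74, 0.01 and 0.06. Replicate 1 was the highest of all 6 libraries for 25 members and the lowest for 4, namely Col7a1, Col24a1, Col22a1 and Col13a1. The 7SL and 7SK share followed the same order in HSALR (43.9%, 23.98% and 18.8% in replicates 1, 3 and 2). That share was higher in every HSALR library than in every WT library (15.5% or less), so a fit cannot fully separate it from genotype. With that share as a covariate in the edgeR fit, 18 of 34 members were above 0, the 4 calls were lost (adjusted p between 0.0569 and 0.214), and Col7a1 and Col24a1 were called higher. With the 7SL and 7SK genes left out of the library sizes instead, the same 4 members were called and 31 of 34 were above 0 (median 0.84).

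Levels of different chains can be compared per length. In WT, Col3a1 was the highest at 119.6 ± 12.0 CPM per kilobase of effective length (SD, n = 3), then Col1a2 at 76.9 ± 10.1, Col1a1 at 51.9 ± 8.39 and Col4a1 at 25.9 ± 0.38. Col6a1 (18.9 ± 0.86), Col6a3 (18.7 ± 1.98) and Col6a2 (16.9 ± 1.74) followed, and these neighbours did not differ beyond their spread. Col4a2 (12.9 ± 0.77), Col15a1 (11.5 ± 0.52), Col5a1 (10.1 ± 0.70) and Col5a2 (9.93 ± 1.34) came next, the last pair within their spread. Col4a6 had the lowest mean at 0.20 ± 0.10, with Col23a1 (0.26 ± 0.11) and Col6a5 (0.28 ± 0.18) within its spread. Col3a1 was again the highest in every HSALR library, at 497.6, 182.2 and 237.8 CPM per kilobase. Col3a1, Col1a2 and Col1a1 together made up 58.8% ± 2.93 of the members' CPM in WT and 62.1% ± 4.25 in HSALR.

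Ratios between the chains of one protein were taken from counts, and again from counts divided by each library's effective length. The ratio of Col1a1 to Col1a2 counts was 0.796, 0.759 and 0.734 in WT and 0.776, 0.644 and 0.731 in HSALR, a log2 difference of -0.09 (two-sided exact permutation p = 0.4) that was -0.07 per length. For Col4a1 to Col4a2 it was 1.85, 1.69 and 1.69 in WT and 1.82, 1.75 and 2.01 in HSALR, a log2 difference of 0.09 (exact permutation p = 0.3) and, per length, one of 0.29 (exact permutation p = 0.1, the smallest that 3 against 3 libraries allow). The ratios of Col6a1 and of Col6a2 to Col6a3 differed by 0.10 and 0.06 on the log2 scale (exact permutation p = 0.6 and 0.5), and per length by 0.23 and 0.22 (p = 0.2 for both by the same exact test). Of the count ratios, that of Col5a1 to Col5a2 had no overlap, at 1.35, 1.116 and 1.18 in WT and 1.06, 0.998 and 1.115 in HSALR, a log2 difference of -0.19 (exact permutation p = 0.1) that was -0.018 per length (exact permutation p = 0.9). Col3a1 to Col1a1 was 1.71, 1.59 and 1.90 in WT and 1.81, 3.03 and 2.08 in HSALR, so HSALR replicate 2, whose collagen sum was nearest to WT, had the highest ratio. Its log2 difference was 0.38 (exact permutation p = 0.2). Over the 27 ratios computed, the smallest p adjusted by Benjamini-Hochberg was 0.225.

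Genes of collagen synthesis were read from the same fit, from a list of 34 genes for enzymes, chaperones, export and regulatory factors, of which 32 were tested. Of these 5 were called higher, 2 lower and 25 neither, where 4.28% and 7.48% of all genes were called higher and lower. Among the 14 tested genes of chain hydroxylation and glycosylation, P3h3 and P3h4 of the prolyl 3-hydroxylase family and Ppib, a prolyl isomerase that works with them, rose by 1.12 ± 0.31, 1.06 ± 0.28 and 1.18 ± 0.30 on the log2 scale (adjusted p = 0.049, 0.0437 and 0.0437). P4ha2, a prolyl 4-hydroxylase subunit, fell by 0.56 ± 0.15 (adjusted p = 0.0422), from 26.7, 24.6 and 25.0 CPM in WT to 19.7, 14.3 and 17.7 CPM. In folding and export, Mia3 (TANGO1), which loads procollagen into transport vesicles, fell by 0.57 ± 0.14 (adjusted p = 0.0302), from 128.3, 125.4 and 119.2 CPM to 83.1, 93.0 and 74.2 CPM, and Creb3l2, a transcription factor of the secretory pathway, rose by 0.59 ± 0.16 (adjusted p = 0.0497). Of the 5 crosslinking enzymes Loxl1, a lysyl oxidase, rose by 1.25 ± 0.27 (adjusted p = 0.0271), from 12.5, 13.5 and 15.1 CPM to 47.5, 21.6 and 28.7 CPM. In propeptide removal 0 of 7 tested genes were called, and their median was 1.013.

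Collagen receptors were 9 genes, and 0 were called, where 4.28% of all tested genes were called higher and 7.48% lower. Itga11, the integrin chain of fibroblasts for fibrillar collagens, had a log2 fold change of 0.97 ± 0.32 (adjusted p = 0.081), and Mrc2, which takes up collagen for degradation, of 0.83 ± 0.29 (adjusted p = 0.0995). For both the groups overlapped. Ddr2, a discoidin domain receptor, was the only receptor without overlap, at 41.4 to 48.0 CPM in WT and 49.0 to 144.6 CPM in HSALR (0.96 ± 0.36, adjusted p = 0.124). The list's median was 0.55, against 0.04 over all genes.

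**Figure D4:**
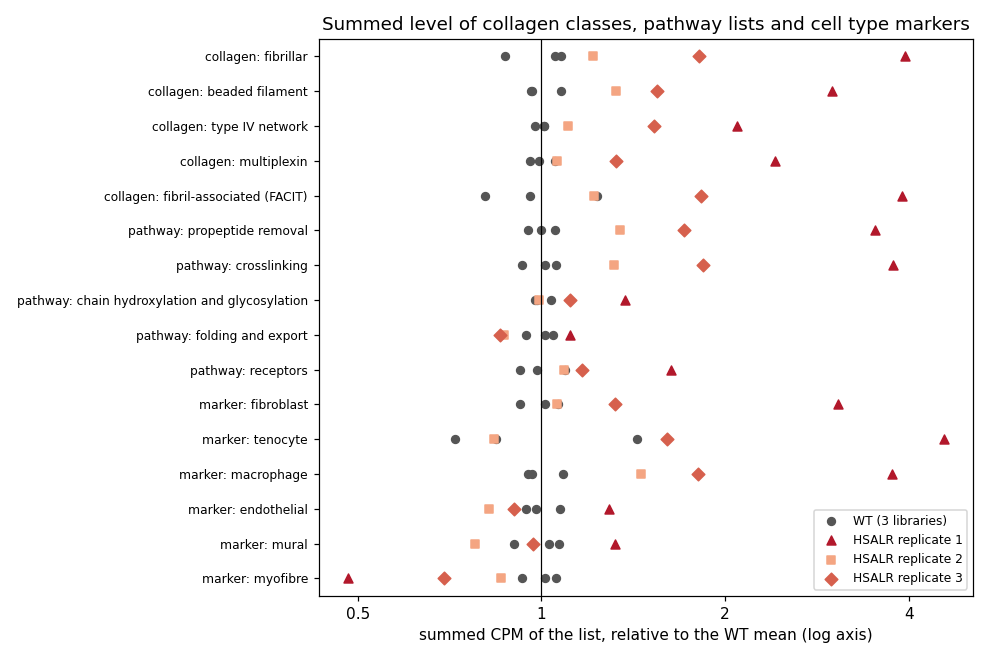
Summed CPM of collagen classes, pathway lists and cell type markers in each library, relative to the mean of the 3 WT libraries (log axis). HSALR replicate 1 (triangles) was at 3.94 times the WT mean for fibrillar collagens, 3.06 times for fibroblast markers and 1.29 times for endothelial markers.

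Markers of several cell types were also highest in HSALR replicate 1. For the counts of called markers below, 4.28% of all tested genes were called higher and 7.48% lower. The 7 fibroblast markers (Pdgfra, Dcn, Lum, Dpt, Pi16, Cd34 and Ly6a) summed to 588 to 680 CPM in WT and to 3.06, 1.06 and 1.32 times the WT mean in HSALR replicates 1, 2 and 3, and 0 of 7 were called. Macrophage markers were at 3.75, 1.46 and 1.81 times the WT mean with 3 of 5 called higher (Adgre1, Cd68 and Csf1r), and tenocyte markers (Tnmd, Scx, Mkx, Thbs4 and Fmod) at 4.56, 0.835 and 1.60 times with 0 of 5 called. Endothelial markers were at 1.29, 0.822 and 0.901 times (0 of 5 called) and mural markers at 1.32, 0.777 and 0.969 times (1 of 5 called, Cspg4). Schwann cell markers were at 1.47, 1.08 and 0.984 times (0 of 2 tested genes called), satellite cell markers at 2.58, 1.20 and 1.32 times (0 of 2), and myofibre markers at 0.483, 0.858 and 0.692 times. Adipocyte markers varied widely within both groups, from 3.11 to 136.6 CPM in WT and from 11.2 to 367.4 CPM in HSALR (0 of 4 called). None of the 40 markers tested was called lower, where 7.48% of all tested genes were. All 5 myofibre markers had a log2 fold change below 0, from -0.83 to -0.093. For Ckm, Myh4 and Tnnt3 every HSALR library was below every WT library, and for Myh1 and Mylpf the groups overlapped. The part of these cell types in the collagen levels was not tested.

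Set against the summed fibroblast markers of the same library, Col14a1 and Col3a1 were higher in HSALR. The ratio of Col14a1 to the summed fibroblast markers was 0.0322, 0.0436 and 0.0449 in WT and 0.0872, 0.0751 and 0.0885 in HSALR, a log2 difference of 1.07, and that of Col3a1 was 0.964, 0.793 and 0.682 against 1.09, 1.16 and 1.22, a difference of 0.52. In both the groups did not overlap, and on the log2 scale the HSALR libraries lay closer together than the WT libraries. Dcn made up 57.4% of that sum. Log2 fold changes of the 7 markers ranged from 0.41 (Pi16) to 1.40 (Lum), and that of Lum was above the 1.35 of Col3a1. For Col3a1 the result therefore depends on the markers chosen, and ratios to Lum, Dpt and the others singly were not tested. Against Pdgfra alone, itself part of that sum, only Col14a1 and Col3a1 were tried. Their log2 differences were 0.96 and 0.41, without overlap, and are not independent of the ratios to the sum. Of the 14 collagens set against that sum, Col5a2 and Col6a1 also lay above without overlap (0.43 and 0.27) and Col15a1 lay below (-0.20). The other 9 overlapped, including the called Col5a3 (0.34) and Col18a1 (0.20), the chains Col1a1 (0.14), Col1a2 (0.24), Col5a1 (0.24), Col6a2 (0.23) and Col6a3 (0.17), and Col4a1 (-0.018) and Col4a2 (-0.11). Against endothelial markers Col4a1, Col4a2, Col15a1 and Col18a1 were higher in every HSALR library, by 0.70, 0.61, 0.52 and 0.93. Each of the ratios without overlap had a two-sided exact permutation p of 0.1, the smallest possible, and an adjusted p of 0.225.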

How the data were processed

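Quadriceps RNA was extracted with TRIzol and made into stranded total RNA libraries, per the labels. Samples were grouped by title. RSEM 1.3.1, Bowtie2 and GRCm39 are named in the submitters' processing notes, and no annotation release was found in the sources used here. The authors deposited expected counts (RSEM's estimate of each gene's reads, in which reads matching several genes are divided), TPM, FPKM and gene lengths. FPKM values, also deposited by the authors, were not used. TPM values were deposited by the authors as counts per effective length on a fixed sum, and served in 1 alternative. Gene length and effective length, as deposited by the authors, served in length alternatives.

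Symbols and coordinates came from GENCODE M39 (53400 of 53947 genes matched, 98.99%). Expected counts were rounded, filtered with filterByExpr, normalised by TMM and tested with edgeR 4.0.16 (R 4.3.3, robust quasi-likelihood F test, group as the only term), with Benjamini-Hochberg adjustment over 13576 genes. SEs were taken as the size of the log2 fold change over the root of F. Library totals of 11468959 to 15023710 put 3 counts at 0.2 to 0.262 CPM, which covers counting error only. The samples carry replicate numbers, and no label states separate animals, so p-values reflect only how these samples vary, which may be technical. Ratios were tested by exact permutation over libraries. Alternatives were DESeq2 1.42.0, limma-voom (limma 3.58.1), other factors and filters, log2(TPM + 0.1), length terms, the 7SL and 7SK share, a replicate block and leaving out each library. Library sizes without 7SL and 7SK, the ratios of Col3a1 to Col1a1 and of Col5a3 to Col5a1, and the ratios to marker sums and to Pdgfra were chosen after seeing the data.

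The members, gene lists and tests were chosen with earlier results of these data known. By rule every member is named, with full statistics for called members and for Col1a1, Col1a2, Col3a1, Col4a1, Col4a2, Col6a1, Col6a2, Col6a3, Col15a1 and Col18a1, and list genes are named where called, at most 6 per list and direction, or else the 2 with the lowest p. Pdgfra and marker genes are named as lists, and Ddr2 as the only receptor whose groups did not overlap.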

Additional observations from a re-analysis of the deposited data

How the results depend on the processing

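The number of collagen genes called higher, 4, became 13 with DESeq2, 2 with limma-voom, 0 on log2(TPM + 0.1), 10 with the length trend removed and 2 with the share of 7SL and 7SK RNA in the fit, and ranged from 0 to 14 with single libraries left out. Over all genes 581 were called higher in the main fit, and 986, 455, 50, 324 and 362 under those settings in that order. With single libraries left out the number over all genes ranged from 42 to 1479. The collagen count stayed within 1.5 times under the other settings, with 3 calls under a replicate block, where Col14a1 was lost (1.74, adjusted p = 0.0939). With no filter the count was 4 but only 2 of these calls were kept. The main fit did not pair samples by number. Libraries of the same number deviated from their group means with correlations of 0.0005, -0.09 and 0.23, and those of different numbers with -0.17 to 0.16. Adipocyte marker sums rose from replicate 1 to replicate 3 in both groups. Whether the numbers pair the samples cannot be settled from these values. None was called lower under any setting. Of the synthesis genes 7 were called, 15 with DESeq2, 4 with limma-voom, 0 on log2(TPM + 0.1), 1 with the effective length offset, 1 with the 7SL and 7SK share, 2 with the replicate block and 0 to 19 with single libraries left out. The receptors called, 0, became 3 with DESeq2 and ranged from 0 to 3 with single libraries left out. With library sizes without 7SL and 7SK, 4 collagens were called.

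The 7SL and 7SK share used below was higher in every HSALR library than in every WT library, so it is confounded with genotype. Signs of log2 fold changes turned mainly under 2 settings. With the 7SL and 7SK share these were Col8a2 (-0.30), Col11a1 (-0.50), Col1a2 (-0.068), Col12a1 (-0.36), Col1a1 (-0.28), Col8a1 (-0.11), Col11a2 (-0.53), Col15a1 (-0.21), Col6a6 (-0.23), Col23a1 (-0.09), Col4a5 (-0.20), Col4a3 (-0.16) and Col4a4 (-0.67). On log2(TPM + 0.1), where the median of all genes was -0.46, these were Col11a1 (-0.11), Col11a2 (-0.0025), Col4a2 (-0.037), Col19a1 (-0.019), Col24a1 (-0.52), Col6a6 (-0.23), Col4a5 (-0.18), Col20a1 (-0.64), Col13a1 (-0.48), Col4a3 (-0.32) and Col4a4 (-0.59). With the effective length offset Col20a1 (-0.50), Col13a1 (-0.16), Col4a3 (-0.023) and Col4a4 (-0.16) turned, and with limma-voom Col4a4 (-0.015). Col6a5, near 0, turned to 0.16 with limma-voom, 0.040 with upper-quartile factors, 0.0018 with the effective length offset, 0.15 with the length trend removed and 0.14 with the replicate block. With single libraries left out, signs turned within ranges of -0.063 to 0.94 for Col11a2, -0.016 to 0.74 for Col24a1, -0.24 to 0.44 for Col20a1, -0.11 to 0.32 for Col13a1, -0.080 to 0.46 for Col4a3, -0.34 to 0.30 for Col4a4, -0.35 to 0.62 for Col6a5, -0.83 to 0.017 for Col4a6 and -0.015 to 0.15 for the log2 difference of the ratio of Col6a2 to Col6a3. None of Col3a1, Col5a3, Col14a1 and Col18a1 changed sign, while Col1a1, Col1a2, Col4a2, Col8a2 and Col24a1, called only under an alternative, each did under another, and the cause was not tested. The calls rest on 3 libraries per group, and the smallest called log2 fold change among collagens was 0.95.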
